A study of Homo sapiens with 24 samples.

Results

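The genes described here are 33 members of the pathways that remove or tolerate the DNA damage left by platinum drugs and other crosslinking agents, out of 61251 genes with values. They were listed by gene symbol, and the rule itself uses no measured value, but the members were chosen with earlier results of these data known. Of the 33, 12 act in nucleotide excision repair, 10 in the Fanconi anaemia pathway, 7 in recombination, 3 in bypass of damaged bases and 1 in mismatch repair. KYSE450 is a long-used cell line grown from a squamous cancer of the human oesophagus, and its RNA was sequenced in 24 libraries.

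The 24 libraries form 4 groups of 6. The chemoresistant DTP cells are drug tolerant persister cells of a chemoresistant derivative titled KYSE450DDP, and the chemoresistant cells are that derivative itself. The parental DTP cells are persisters of the starting line, and the parental cells are the starting line. Persister cells are those that survive a drug in a tolerant state. All 4 groups carry the wild type genotype label, were grown in RPMI-1640 with 10% fetal bovine serum, and have a treatment protocol that reads "No treatment". The labels name no drug, dose or time, so what the persisters had met, and for how long, is not known from them. No label says whether replicates are separate cultures, and a p-value here thus speaks of library-to-library spread alone, which may be technical. The comparisons ask how persister cells differ from the cells they derive from in each line, how the resistant line differs from the parental line, and whether the persister change differs between the lines.

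In nucleotide excision repair, a distorted stretch of DNA is found by sensor proteins, opened by helicases and cut on both sides by nucleases. Crosslinks that join both strands are unhooked by the Fanconi anaemia pathway, in which a core complex of many subunits marks the paired proteins FANCD2 and FANCI. Bypass polymerases then copy past the unhooked adduct, and homologous recombination closes the break. Platinum adducts are substrates of all these routes, and mismatch repair proteins can also bind them.

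The libraries held 14946552 to 37987427 reads, recovered from the steps of the deposited FPKM values (fragments per kilobase of gene, scaled to library size). Each member had between 43 and 21368 reads in a library, the lowest for ERCC5 and the highest for DDB1. The 10 squamous epithelium markers, which include TP63 and the keratins KRT5 and KRT14, summed to 5550 to 6500 FPKM in chemoresistant DTP, 4773 to 5577 in chemoresistant, 2822 to 3455 in parental DTP and 4682 to 5179 FPKM in parental libraries. The 6 fibroblast markers summed to 1.42 to 19.2 FPKM and the 6 leukocyte markers to 0.0671 to 2.63 FPKM, with CD3E listed at 0 in every library. The 5 endothelium markers summed to 0.103 to 1.14 FPKM and the 6 glandular epithelium markers to 0.134 to 3.11 FPKM. The 5 nuclear-retained RNAs summed to 59.6 to 93.1 FPKM in chemoresistant DTP, 63.8 to 96.8 in chemoresistant, 85.5 to 100.1 in parental DTP and 44.6 to 66.6 FPKM in parental libraries. The 10 replication-dependent histone genes summed to 154 to 192 FPKM in chemoresistant DTP, 150 to 171 in chemoresistant, 73.1 to 80.1 in parental DTP and 46.6 to 51.5 FPKM in parental libraries. The part of these lists in the members' changes was not tested. In these bulk libraries, fewer cells of a type and less RNA per cell cannot be told apart. Replicate 2 of the chemoresistant DTP cells stood apart from its group. Over all tested genes, the SD of its log2 deviations from the mean of the other libraries of its group was 0.35. The same SD was 0.25 and 0.23 in replicates 6 and 5 of the parental DTP cells and 0.13 to 0.21 in the 21 others. Replicate 2 of the chemoresistant DTP cells was the lowest of its group for 22 of the 33 members, and replicate 3 of the chemoresistant cells was the lowest for 20. Such counts were not made over all tested genes.

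**Figure D1:**
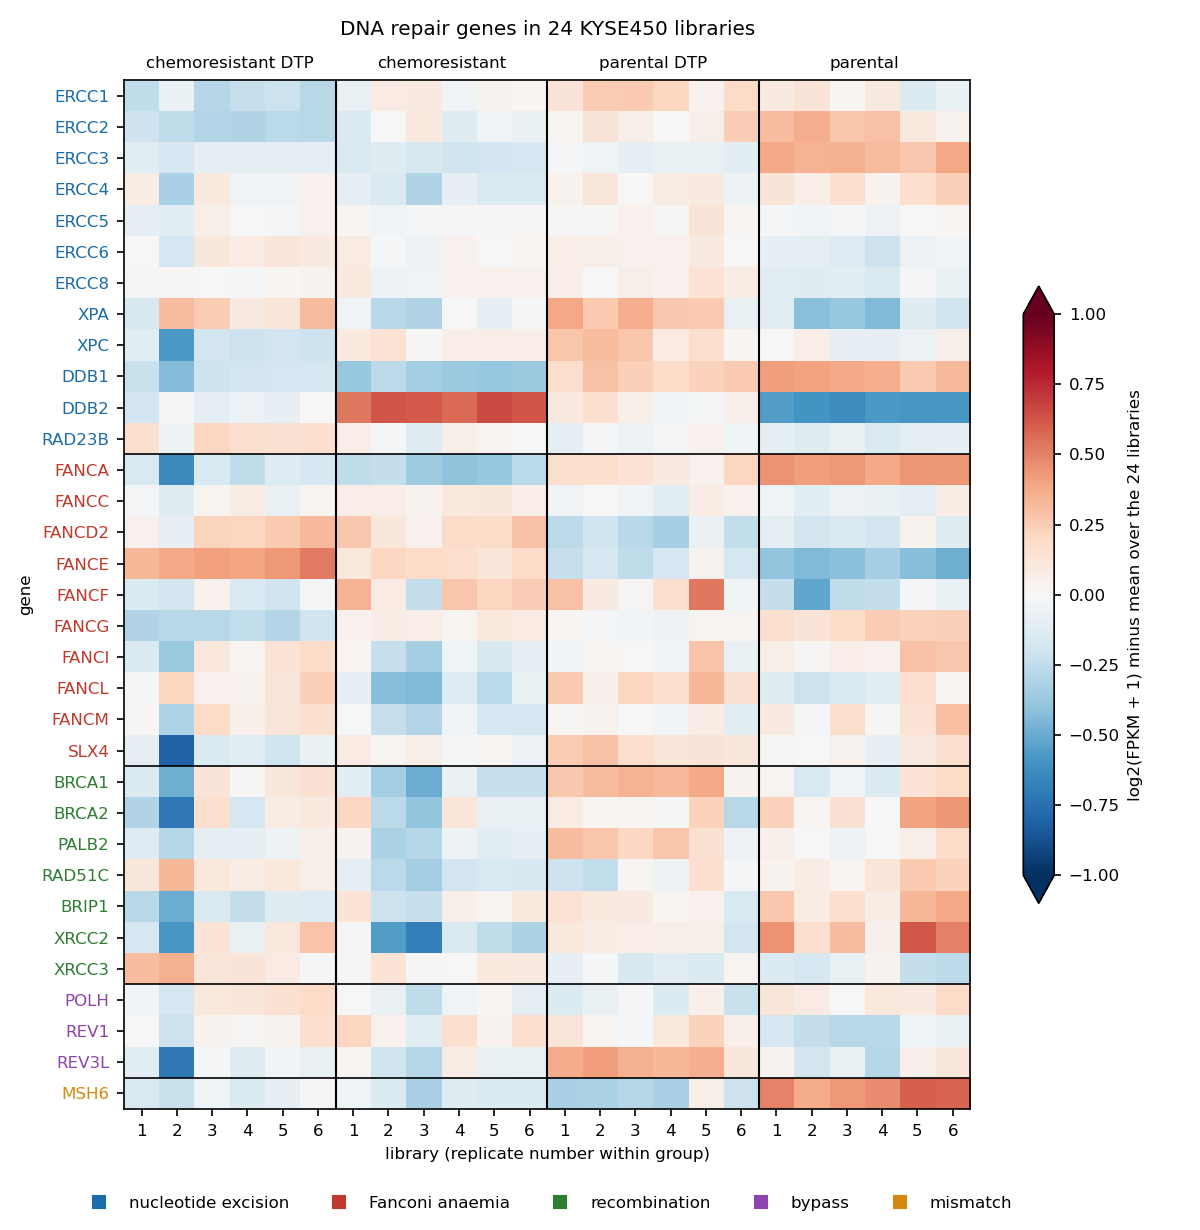
Level of each of the 33 genes (rows, coloured by role) in the 24 libraries (columns, by group and replicate number). Colour gives log2(FPKM + 1) minus the gene's mean over all libraries, clipped at 1 either way. DDB2 is darkest red in the chemoresistant libraries and darkest blue in the parental ones, MSH6 and ERCC3 are red in the parental group, and replicate 2 of the chemoresistant DTP cells is blue in many rows.

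Of the 33 members, 30 had a group average of 1 FPKM or more somewhere among the 4 groups and entered the test. ERCC5, ERCC6 and ERCC8 did not. The test was limma on log2(FPKM + 1), two-sided, over 13729 genes, with Benjamini-Hochberg adjustment and a threshold of 0.05, and the fold changes below are on that log2 scale.

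In parental DTP against parental, 10 members were higher and 10 were lower, against 45.8% of all tested genes higher and 19.7% lower. The members' median log2 fold change was -0.03, and that of all tested genes was 0.14. In chemoresistant DTP against chemoresistant, 7 members were higher and 8 were lower, where 20.5% of tested genes were higher and 27.4% lower. Without replicate 2 of the chemoresistant DTP cells 14 members were higher there. In chemoresistant against parental, 8 members were higher and 17 were lower, with a background of 48.2% higher and 29.4% lower. The members' median was -0.17 against 0.14 for all tested genes. In chemoresistant DTP against parental DTP, 6 members were higher and 13 were lower, beside 29.5% of tested genes higher and 32.3% lower.

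Lower calls thus made up 56.7% of the members between the 2 lines, and most were small. At 1.5-fold or more on the log2(FPKM + 1) scale, DDB2 alone was higher and MSH6 alone lower in parental DTP against parental. There 12.2% of tested genes were that much higher and 3.7% that much lower. The ratio of plain FPKM means in that comparison was also past 1.5-fold for XPA, at 1.53. In chemoresistant against parental, DDB2 was higher by that size on the log2(FPKM + 1) scale, and FANCA, DDB1, XRCC2 and MSH6 were lower. The background was 23.4% and 10.9% of tested genes, and the ratio of plain FPKM means was 1.56 for FANCE. DDB2 was the sole member past 1.5-fold between the chemoresistant DTP and chemoresistant cells, where it was lower, against a background of 3.63% lower and 2.05% higher. On the log2(FPKM + 1) scale no member passed 1.5-fold between the persisters of the 2 lines, where 8.17% of tested genes were higher and 8.1% lower by that size. The ratio of plain FPKM means there was 1.53 for FANCE and 0.665 for REV3L, and FANCE passed 1.5-fold with relative log expression scaling (0.60). With that scaling DDB2 (0.47) fell short of 1.5-fold in parental DTP against parental. ERCC3 (-0.67) then passed 1.5-fold as lower in chemoresistant against parental.

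The medians of all tested genes at 0.14 mean that the direction of small changes depends on how libraries are scaled. With relative log expression scaling, which puts the median of all tested genes between -0.01 and 0.00 in every comparison, 4 members were higher and 17 lower in parental DTP against parental, on a background of 32.6% and 32.1%. That scaling gave, in chemoresistant against parental, 5 higher and 19 lower (39.1% and 38.5% of tested genes), and in chemoresistant DTP against chemoresistant 11 higher and 8 lower (23.7% and 25.4%). In chemoresistant DTP against parental DTP it gave 7 higher and 12 lower (31.7% and 30.9%). That scaling also moved called falls by over 1.5 times in parental DTP against parental, to -0.31 for ERCC2, -0.45 for FANCA, -0.38 for FANCG, -0.34 for RAD51C, -0.29 for BRIP1, -0.49 for XRCC2 and -0.31 for POLH, and called rises to 0.26 for FANCF and 0.23 for REV3L. In chemoresistant against parental it gave -0.44 for ERCC2, -0.31 for FANCG, -0.43 for FANCI, -0.33 for FANCL, -0.42 for BRCA1, -0.34 for PALB2, -0.30 for POLH and 0.24 for FANCF. Of the calls with the deposited scaling, 4 of 10 higher and 6 of 10 lower held in parental DTP against parental under every alternative tried, and 5 of 8 higher and 13 of 17 lower held in chemoresistant against parental.

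**Figure D2:**
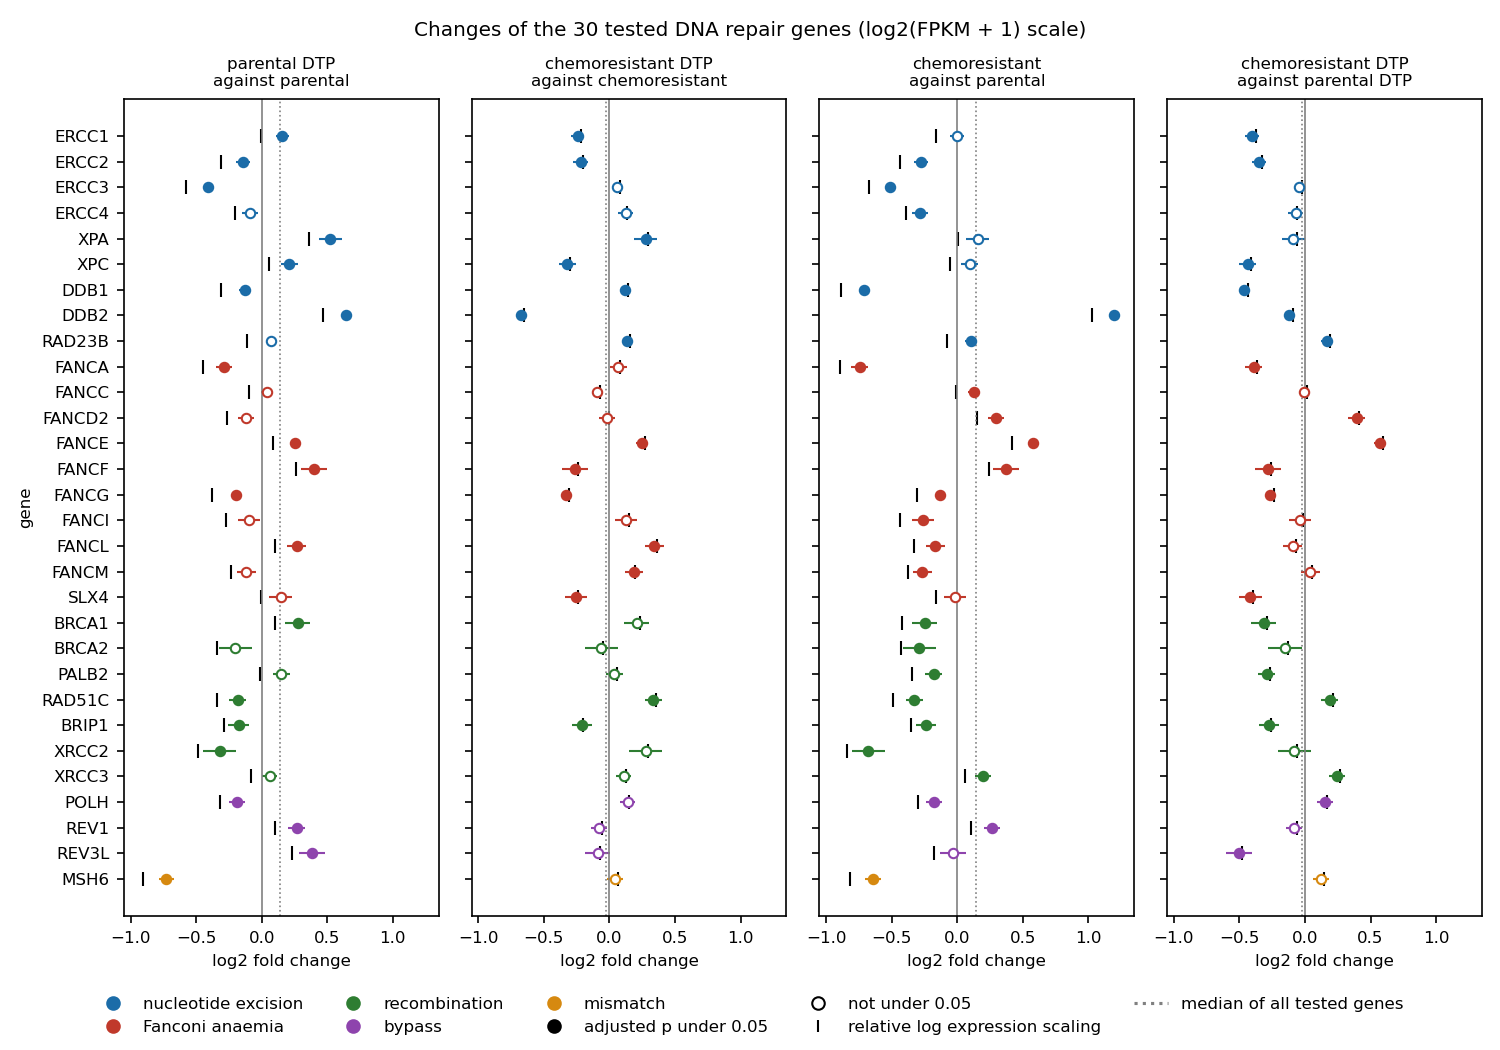
Log2 fold change (horizontal axis, on the log2(FPKM + 1) scale) of the 30 tested genes (rows) in the 4 comparisons, with bars for the standard error. Filled points passed the adjusted threshold of 0.05, black ticks give the value with relative log expression scaling, and the dotted line is the median of all tested genes. DDB2 lies farthest right in chemoresistant against parental at 1.19 and farthest left in chemoresistant DTP against chemoresistant at -0.67.

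The damage sensor DDB2 had the largest change of the members in chemoresistant against parental and in chemoresistant DTP against chemoresistant. DDB2 (GRCh38 chromosome 11, 47214465 to 47239240, plus strand) encodes the small subunit of the UV-DDB complex, which binds helix-distorting lesions, and is a known p53 target in human cells. It ran from 12.5 to 14.5 FPKM (median 13.7) in the chemoresistant DTP libraries and from 21.2 to 23.3 FPKM (median 22.7) in the chemoresistant ones. It ran from 14.1 to 16.3 FPKM (median 15.0) in the parental DTP libraries and from 8.91 to 9.43 FPKM (median 9.27) in the parental ones. The chemoresistant libraries were all above every other library, the parental ones were all below, and the ranges of the 2 persister groups overlapped. DDB2 thus rose in parental persisters (log2 fold change 0.64 ± 0.04 SE, limma adjusted p = 6.56e-13) and fell in chemoresistant persisters (-0.67 ± 0.04, limma adjusted p = 6.38e-13). With relative log expression scaling DDB2 changed by 0.47 in parental and by -0.65 in chemoresistant persisters. Between the lines it rose by 1.19 ± 0.04 (limma adjusted p = 7.55e-19), and the ratio of its plain FPKM means, chemoresistant over parental, was 2.43. The difference between its persister changes in the 2 lines was -1.31 ± 0.05 (limma adjusted p = 8.4e-16). Between the persisters it was lower by a small amount (-0.12, limma adjusted p = 0.00908), which became -0.09 with adjusted p = 0.0833 under relative log expression scaling.

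The promoter of DDB2 is shown because p53 targets are among the genes set beside it. It comes from RefSeq (GRCh38.p14, plus strand, chr11:47214724-47215023), covers 300 bases around one of the annotated starts, the last 50 of them after it, and capitals mark 2 matches to the p53 decamer that lie 1 base apart, the first at base 5 after the start.
DDB2: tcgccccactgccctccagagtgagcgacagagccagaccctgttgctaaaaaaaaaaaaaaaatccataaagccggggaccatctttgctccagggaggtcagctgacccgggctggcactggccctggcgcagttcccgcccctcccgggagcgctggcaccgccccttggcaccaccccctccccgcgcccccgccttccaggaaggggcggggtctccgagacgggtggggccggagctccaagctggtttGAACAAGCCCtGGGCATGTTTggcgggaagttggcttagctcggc
The decamer was searched on both strands. It occurs in 6.64% of 35097 promoters of this length and, of the 45 promoters found for 32 members, in this one. Of 20 other p53 targets, 19 were tested: 11 were higher and 4 lower in parental DTP against parental, and 6 were higher and 4 lower in chemoresistant DTP against chemoresistant. In chemoresistant against parental, 13 were higher and 5 lower. The shares of all tested genes higher and lower were 45.8% and 19.7%, 20.5% and 27.4%, and 48.2% and 29.4% in these comparisons. Under relative log expression scaling the first split was 7 and 5, on a background of 32.6% and 32.1%. The second was then 7 and 3 (23.7% and 25.4% of tested genes) and the third 12 and 5 (39.1% and 38.5%). CDKN1A, the cell cycle inhibitor, averaged 10.9 ± 1.22 FPKM in chemoresistant DTP cells and 4.84 ± 0.672 FPKM in chemoresistant cells (SD, n = 6 each). Its rise of 1.02 (limma adjusted p = 3.55e-10) was the largest of the 19 in that comparison. Their median there was -0.02, and 9 did not pass the test. The part of p53 in the changes of DDB2 was not tested.

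DDB1 (chromosome 11, 61299451 to 61342596, minus strand), the large partner of DDB2 and the adaptor that ties it to a ubiquitin ligase, moved the other way between the lines. It ran from 23.3 to 28.0 FPKM (median 27.6) in chemoresistant DTP libraries and from 24.1 to 26.3 FPKM (median 24.3) in chemoresistant ones. In parental DTP libraries it ran from 35.9 to 39.1 FPKM (median 37.4) and in parental ones from 38.2 to 42.7 FPKM (median 41.4). No library of the resistant line reached the lowest library of the parental line. DDB1 was lower in chemoresistant than in parental cells (-0.71 ± 0.04, limma adjusted p = 9.53e-14) and lower in chemoresistant DTP than in parental DTP cells (-0.46 ± 0.04, limma adjusted p = 8.05e-10). Within the lines its log2 fold change was -0.13 in parental persisters (limma adjusted p = 0.0093, and -0.31 with relative log expression scaling) and 0.12 in chemoresistant persisters (limma adjusted p = 0.0212). The second call was lost without replicate 5 or without replicate 6 of the chemoresistant DTP cells. The ratio of DDB2 to DDB1 FPKM averaged 0.512 ± 0.0575 in chemoresistant DTP, 0.909 ± 0.0368 in chemoresistant, 0.401 ± 0.0185 in parental DTP and 0.226 ± 0.0106 in parental cells (SD, n = 6 each). Its ranges did not overlap between any 2 groups.

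XPC, the sensor of lesions outside transcribed strands, was lowest in the chemoresistant persisters. It ran from 2.89 to 4.36 FPKM (median 4.05) in chemoresistant DTP libraries and from 4.84 to 5.40 FPKM (median 5.08) in chemoresistant ones. It ran from 4.88 to 6.20 FPKM (median 5.77) in parental DTP libraries and from 4.44 to 5.08 FPKM (median 4.67) in parental ones. All chemoresistant DTP libraries lay below every other library. XPC fell in chemoresistant persisters (-0.32 ± 0.06, limma adjusted p = 0.000182) and was lower in chemoresistant DTP than in parental DTP cells (-0.44 ± 0.06, limma adjusted p = 2.04e-06). Its rise in parental persisters (0.21, limma adjusted p = 0.00561) was lost under relative log expression scaling, at 0.05. Exons of XPC share 23.8% of their bases with an antisense transcript and 6.6% with LSM3 on the other strand. With unknown strandedness, the reads of XPC are thus uncertain. RAD23B, which binds and stabilises XPC, had the highest level of all members, with means of 105 FPKM in chemoresistant DTP, 95.9 in chemoresistant, 93.8 in parental DTP and 89.1 in parental cells. It was higher in chemoresistant DTP than in chemoresistant cells by 0.13 (limma adjusted p = 0.00935). Its rise between the lines (0.10, limma adjusted p = 0.0262) reversed to -0.08 under relative log expression scaling.

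After recognition, XPA checks the lesion, and the helicases ERCC2 and ERCC3 of the transcription factor TFIIH open the DNA. XPA ran from 5.14 to 7.54 FPKM (median 6.83) in chemoresistant DTP libraries and from 4.59 to 5.83 FPKM (median 5.55) in chemoresistant ones. It ran from 5.53 to 7.96 FPKM (median 7.25) in parental DTP libraries and from 4.05 to 5.40 FPKM (median 4.63) in parental ones, and the parental pair did not overlap. XPA rose in the persisters of both lines, by 0.52 ± 0.09 in parental (limma adjusted p = 1.55e-05) and by 0.28 ± 0.09 in chemoresistant cells (limma adjusted p = 0.0119). The difference between these changes missed the threshold (-0.24 ± 0.12, limma adjusted p = 0.0902).

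ERCC3 (chromosome 2, 127257290 to 127294176, minus strand) was high in parental cells alone. It ran from 6.15 to 6.52 FPKM (median 6.49) in chemoresistant DTP, from 6.00 to 6.36 FPKM (median 6.13) in chemoresistant, from 6.45 to 6.94 FPKM (median 6.63) in parental DTP and from 8.68 to 9.49 FPKM (median 9.23) in parental libraries. Every parental library was above all the others. It fell in parental persisters (-0.41 ± 0.03, limma adjusted p = 1.5e-11) and in chemoresistant against parental cells (-0.51 ± 0.03, limma adjusted p = 6.21e-14), while its change in chemoresistant persisters was 0.06 (limma adjusted p = 0.112). The persister changes differed between the lines by 0.47 ± 0.04 (limma adjusted p = 6.94e-10). ERCC2 had a mean of 5.21 FPKM in chemoresistant DTP, 6.24 in chemoresistant, 6.94 in parental DTP and 7.79 in parental cells, and was called lower in all 4 comparisons. Its fall in parental persisters was lost when any one of 5 libraries was left out, replicates 1 and 4 of the parental DTP cells and replicates 1, 2 and 4 of the parental cells.

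The 5′ incision is made by ERCC1 with its nuclease partner ERCC4 (XPF), which also cut crosslinks. ERCC1 ran from 5.50 to 6.59 FPKM (median 5.72) in chemoresistant DTP libraries, the highest being replicate 2, and from 6.53 to 7.47 FPKM (median 7.08) in chemoresistant ones. It ran from 7.18 to 8.50 FPKM (median 8.13) in parental DTP libraries and from 6.21 to 7.69 FPKM (median 7.26) in parental ones. The 2 persister groups did not overlap, and ERCC1 was lower in chemoresistant DTP than in parental DTP cells (-0.40 ± 0.05, limma adjusted p = 2.71e-07). It also fell in chemoresistant persisters (-0.24 ± 0.05, limma adjusted p = 0.000388). Its rise in parental persisters (0.16, limma adjusted p = 0.00903) went to -0.01 under relative log expression scaling. ERCC1 did not pass the test between the chemoresistant and parental lines (-0.00 ± 0.05, limma adjusted p = 0.96), but was lower with relative log expression scaling (-0.16, limma adjusted p = 0.0297). ERCC4 averaged 1.23 FPKM in chemoresistant DTP, 1.04 in chemoresistant, 1.33 in parental DTP and 1.49 in parental cells, and was lower in chemoresistant than in parental cells (-0.29 ± 0.06, limma adjusted p = 0.000136). Exons of ERCC1 share 28.6% of their bases with CD3EAP on the other strand, and those of ERCC4 share 25.7% with an antisense transcript, so with unknown strandedness their reads are uncertain.

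The 3 members below the minimum were the 3′ nuclease ERCC5 and the transcription-coupled repair factors ERCC6 and ERCC8. ERCC5 averaged 0.274 FPKM in chemoresistant DTP, 0.285 in chemoresistant, 0.323 in parental DTP and 0.274 in parental cells, with overlapping libraries. It shares 63.2% of its exon bases with a readthrough transcript on the same strand, BIVM-ERCC5, which was listed at 0 in every library, so its level is uncertain. ERCC6 ran from 0.915 to 1.05 FPKM in parental DTP libraries and from 0.661 to 0.887 FPKM in parental ones. ERCC8 ran from 0.491 to 0.652 FPKM in parental DTP libraries and from 0.346 to 0.472 FPKM in parental ones. Both were thus higher in every parental DTP library than in any parental one, as were 32.8% of all tested genes.

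**Figure D3:**
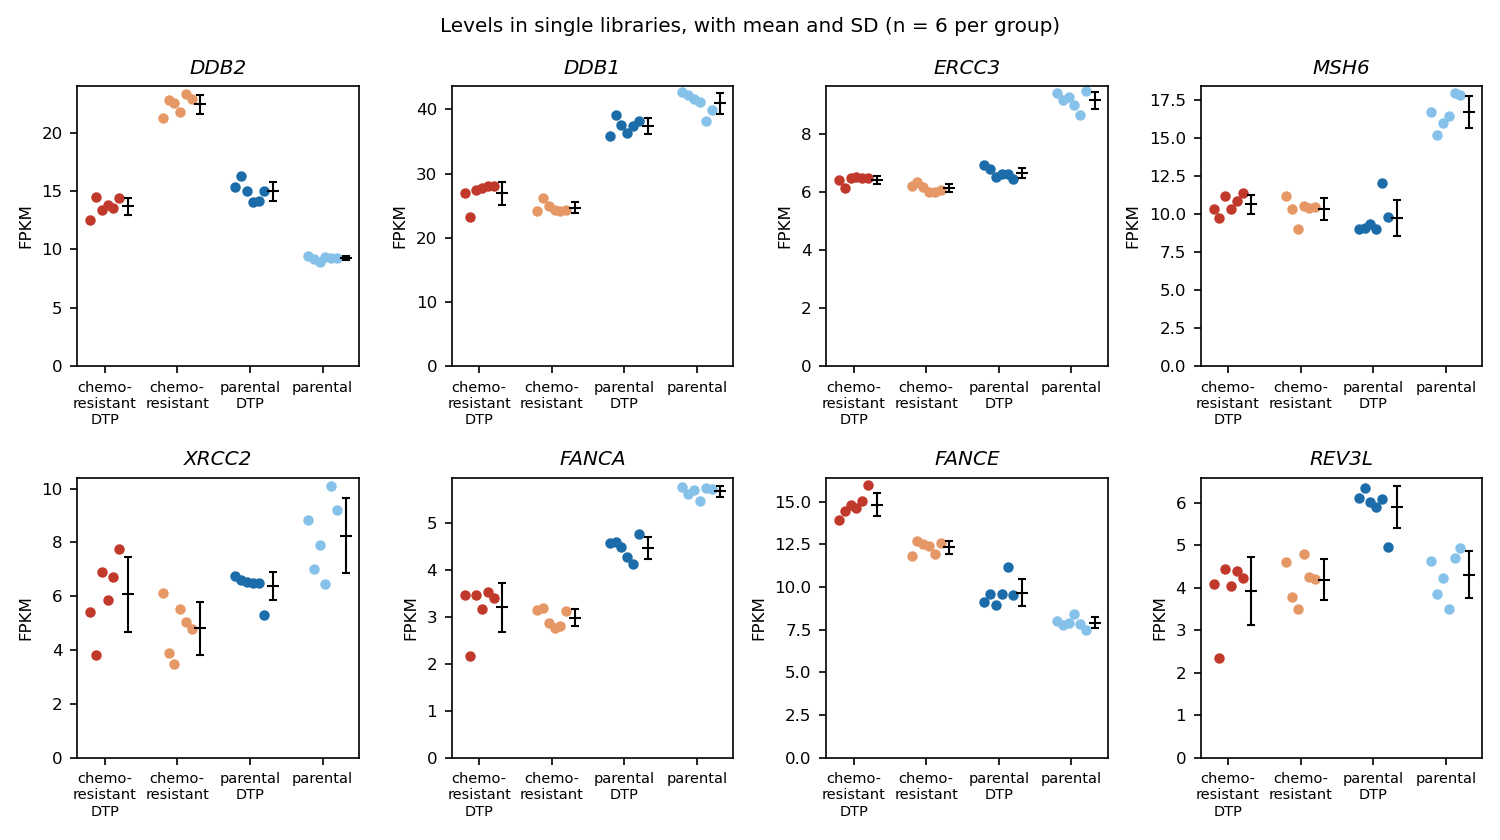
FPKM (vertical axis, from 0) of 8 genes in the single libraries of the chemoresistant DTP, chemoresistant, parental DTP and parental groups, with black bars for mean and SD (n = 6). DDB2 is highest in chemoresistant cells, DDB1, ERCC3, MSH6 and FANCA are highest in parental cells, FANCE is highest in chemoresistant DTP cells and REV3L in parental DTP cells.

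Among the Fanconi core complex genes, FANCE and FANCA ran in opposite directions. FANCE (chromosome 6, 35452356 to 35467103, plus strand), which links the core to FANCD2, ran from 13.9 to 16.0 FPKM (median 14.7) in chemoresistant DTP and from 11.8 to 12.7 FPKM (median 12.5) in chemoresistant libraries. It ran from 8.96 to 11.2 FPKM (median 9.56) in parental DTP and from 7.48 to 8.43 FPKM (median 7.88) in parental libraries. The 4 groups did not overlap. FANCE was higher in chemoresistant than in parental cells (0.58 ± 0.04, limma adjusted p = 8.39e-12), in chemoresistant DTP than in parental DTP cells (0.57 ± 0.04, limma adjusted p = 2.91e-11) and in chemoresistant DTP than in chemoresistant cells (0.25 ± 0.04, limma adjusted p = 4.14e-05). Its rise in parental persisters (0.26, limma adjusted p = 1.35e-05) was 0.09 with adjusted p = 0.0844 under relative log expression scaling.

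FANCA (chromosome 16, 89737549 to 89816657, minus strand), a scaffold subunit of the core, ran from 2.17 to 3.53 FPKM (median 3.44) in chemoresistant DTP and from 2.76 to 3.20 FPKM (median 3.00) in chemoresistant libraries. It ran from 4.12 to 4.75 FPKM (median 4.53) in parental DTP and from 5.46 to 5.77 FPKM (median 5.72) in parental libraries. The parental libraries were all highest, the parental DTP ones came next, and the 2 groups of the resistant line overlapped below them. FANCA fell by 0.74 ± 0.06 in chemoresistant against parental cells on the log2(FPKM + 1) scale (limma adjusted p = 1.36e-10), and the ratio of its plain FPKM means was 0.526. It was also lower in parental DTP than in parental cells (-0.29 ± 0.06, limma adjusted p = 0.00037) and in chemoresistant DTP than in parental DTP cells (-0.39 ± 0.06, limma adjusted p = 1.07e-05). Its exons share 23.6% of their bases with ZNF276 on the other strand.

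FANCG, which binds FANCA directly, fell in the persisters of both lines. It ran from 13.3 to 14.3 FPKM (median 13.5) in chemoresistant DTP, from 16.9 to 17.9 FPKM (median 17.5) in chemoresistant, from 16.0 to 16.9 FPKM (median 16.7) in parental DTP and from 18.3 to 19.9 FPKM (median 19.3) in parental libraries. The chemoresistant DTP libraries lay below all others and the parental ones above all others. Its log2 fold change was -0.33 ± 0.03 in chemoresistant persisters (limma adjusted p = 2.3e-09) and -0.20 ± 0.03 in parental persisters (limma adjusted p = 2.81e-06). FANCL, the ubiquitin ligase subunit, rose in chemoresistant persisters by 0.34 ± 0.07 (limma adjusted p = 0.000441), with means of 9.20 FPKM in chemoresistant DTP and 7.07 FPKM in chemoresistant cells. Its rise in parental persisters (0.27, limma adjusted p = 0.00274) was lost under relative log expression scaling, and 18.7% of its exon bases overlap VRK2 on the other strand.

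FANCF, an adaptor of the core complex, averaged 2.62 ± 0.254 FPKM in chemoresistant DTP, 3.36 ± 0.589 in chemoresistant, 3.43 ± 0.675 in parental DTP and 2.35 ± 0.397 FPKM in parental cells (SD, n = 6 each). It rose in parental persisters (0.40 ± 0.10, limma adjusted p = 0.0012) and was lower in chemoresistant persisters (-0.26 ± 0.10, limma adjusted p = 0.0343). The second call was lost when any one of 8 libraries was left out, replicates 1, 2, 4 and 5 of the chemoresistant DTP cells and replicates 1, 4, 5 and 6 of the chemoresistant cells. FANCC, another core subunit, stayed between group means of 2.61 and 2.93 FPKM, and its call in chemoresistant against parental cells (0.13, limma adjusted p = 0.00773) reversed to -0.01 under relative log expression scaling. FANCM, the helicase that anchors the core to DNA, was lower in chemoresistant than in parental cells (-0.26 ± 0.07, limma adjusted p = 0.00188).

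FANCD2 and FANCI form the pair that the core complex ubiquitinates, and their transcripts did not keep one ratio. FANCD2 averaged 4.76 ± 0.594 FPKM in chemoresistant DTP, 4.82 ± 0.372 in chemoresistant, 3.37 ± 0.282 in parental DTP and 3.74 ± 0.281 FPKM in parental cells (SD, n = 6 each). It was higher in chemoresistant than in parental cells (0.30 ± 0.06, limma adjusted p = 0.000168, and 0.15 with relative log expression scaling), with no overlap of libraries, and in chemoresistant DTP than in parental DTP cells (0.39 ± 0.06, limma adjusted p = 7.84e-06). FANCI was lower in chemoresistant than in parental cells (-0.26 ± 0.08, limma adjusted p = 0.0073). The ratio of FANCD2 to FANCI FPKM was 0.350 to 0.385 in chemoresistant DTP libraries and 0.381 to 0.425 in chemoresistant ones. It was 0.240 to 0.266 in parental DTP libraries and 0.232 to 0.276 in parental ones, so that no library of one line reached the range of the other. SLX4, the scaffold for nucleases that unhook the crosslink, was lower in chemoresistant DTP than in parental DTP cells (-0.42 ± 0.09, limma adjusted p = 0.000207). Its chemoresistant DTP libraries ran from 1.38 to 2.99 FPKM (median 2.84), the lowest being replicate 2, and its parental DTP libraries from 3.52 to 4.12 FPKM (median 3.64).

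In chemoresistant against parental cells, 6 of the 7 recombination genes were lower and 1, XRCC3, was higher, with a median of -0.25, against 29.4% of tested genes lower, 48.2% higher and a median of 0.14. The lower calls of BRCA1, BRCA2 and PALB2 were each lost when single libraries were left out. That of XRCC3 as higher was lost under relative log expression scaling. In chemoresistant DTP against parental DTP, 2 were higher and 3 lower, beside 29.5% of tested genes higher and 32.3% lower. XRCC2 (chromosome 7, 152644779 to 152676165, minus strand), which acts in homologous recombination, changed most. It ran from 3.80 to 7.77 FPKM (median 6.28) in chemoresistant DTP and from 3.49 to 6.10 FPKM (median 4.91) in chemoresistant libraries. It ran from 5.32 to 6.74 FPKM (median 6.51) in parental DTP and from 6.44 to 10.1 FPKM (median 8.38) in parental libraries. XRCC2 was lower in chemoresistant than in parental cells (-0.68 ± 0.13, limma adjusted p = 3.58e-05), and these 2 groups did not overlap. Its fall in parental persisters (-0.32, limma adjusted p = 0.0299) was lost when any one of 4 libraries was left out, replicate 6 of the parental DTP cells and replicates 1, 5 and 6 of the parental cells.

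RAD51C, which also acts in homologous recombination, rose in chemoresistant persisters. It ran from 6.23 to 7.71 FPKM (median 6.46) in chemoresistant DTP and from 4.44 to 5.50 FPKM (median 5.13) in chemoresistant libraries, with no overlap. It ran from 4.86 to 6.79 FPKM (median 5.77) in parental DTP and from 6.04 to 7.33 FPKM (median 6.43) in parental libraries. The change was 0.34 ± 0.06 in chemoresistant persisters (limma adjusted p = 0.000152) and -0.33 ± 0.06 in chemoresistant against parental cells (limma adjusted p = 7.39e-05). Its fall in parental persisters (-0.18, limma adjusted p = 0.0176) was lost without replicate 1 or without replicate 2 of the parental DTP cells. The difference between the persister changes was 0.52 ± 0.09 (limma adjusted p = 3.03e-05).

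BRCA1, which directs broken ends to recombination, averaged 12.1 ± 2.04 FPKM in chemoresistant DTP, 10.2 ± 1.19 in chemoresistant, 15.1 ± 1.32 in parental DTP and 12.3 ± 1.29 FPKM in parental cells (SD, n = 6 each). It was lower in chemoresistant DTP than in parental DTP cells (-0.31 ± 0.10, limma adjusted p = 0.00636). Its rise in parental persisters (0.27, limma adjusted p = 0.0144) was 0.10 with adjusted p = 0.262 under relative log expression scaling, and its fall between the lines (-0.25, limma adjusted p = 0.0211) was lost without replicate 3 of the chemoresistant or replicate 6 of the parental cells. PALB2, the bridge between BRCA1 and BRCA2, was lower in chemoresistant DTP than in parental DTP cells (-0.29 ± 0.07, limma adjusted p = 0.000566). BRCA2, which acts downstream of PALB2, varied widely within groups, from 1.30 to 3.25 FPKM in chemoresistant DTP libraries and from 2.79 to 4.14 FPKM in parental ones. Its fall in chemoresistant against parental cells (-0.29 ± 0.13, limma adjusted p = 0.0444) was lost when any one of 8 libraries was left out, replicates 2, 3, 5 and 6 of the chemoresistant and replicates 1, 3, 5 and 6 of the parental cells. BRIP1, a helicase that binds BRCA1, averaged 0.872 FPKM in chemoresistant DTP, 1.17 in chemoresistant, 1.26 in parental DTP and 1.56 in parental cells. Its fall in chemoresistant persisters (-0.21, limma adjusted p = 0.0261) was -0.16 with adjusted p = 0.0709 without replicate 2 of the chemoresistant DTP cells. XRCC3, which acts with RAD51C, was higher in chemoresistant DTP than in parental DTP cells (0.24 ± 0.06, limma adjusted p = 0.000998), but 76.7% of its exon bases are shared with KLC1 on the other strand, so its reads are uncertain.

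Of the 3 bypass genes, 2 were higher and 1 lower in parental DTP against parental, and 1 was higher and 1 lower both in chemoresistant against parental and in chemoresistant DTP against parental DTP. The shares of all tested genes higher and lower were 45.8% and 19.7%, 48.2% and 29.4%, and 29.5% and 32.3% in these comparisons. With relative log expression scaling, 1 bypass gene was higher and 1 lower in each of these comparisons. All tested genes then gave 32.6% and 32.1%, 39.1% and 38.5%, and 31.7% and 30.9%. REV3L, the catalytic subunit of polymerase zeta, ran from 2.34 to 4.45 FPKM (median 4.15) in chemoresistant DTP and from 3.50 to 4.78 FPKM (median 4.23) in chemoresistant libraries. It ran from 4.95 to 6.35 FPKM (median 6.04) in parental DTP and from 3.50 to 4.94 FPKM (median 4.42) in parental libraries. Every parental DTP library was above all other libraries, although the lowest, replicate 6, was close to the highest parental one. REV3L rose in parental persisters (0.38 ± 0.10, limma adjusted p = 0.00145) and was lower in chemoresistant DTP than in parental DTP cells (-0.50 ± 0.10, limma adjusted p = 9.54e-05). REV1, the polymerase that gathers the others at a lesion, averaged 6.70 FPKM in chemoresistant DTP, 7.12 in chemoresistant, 7.13 in parental DTP and 5.76 FPKM in parental cells. It was higher in parental DTP than in parental cells (0.27, limma adjusted p = 0.000673), a call that relative log expression scaling took to 0.10 with adjusted p = 0.0522, and higher in chemoresistant than in parental cells (0.26 ± 0.06, limma adjusted p = 0.000533, and 0.11 with that scaling). POLH, which copies past platinum adducts, averaged 2.01 FPKM in chemoresistant DTP, 1.73 in chemoresistant, 1.70 in parental DTP and 2.08 in parental cells. POLH was lower in parental DTP than in parental cells (-0.19 ± 0.06, limma adjusted p = 0.00818). In chemoresistant persisters the log2 fold changes of the 3 genes ran from -0.09 to 0.14 and none passed the test. POLH did pass there as higher with relative log expression scaling (0.15, limma adjusted p = 0.0131) and without replicate 2 of the chemoresistant DTP cells (0.18, limma adjusted p = 0.00615).

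MSH6 (chromosome 2, 47695530 to 47810101, plus strand), a sensor of mismatched bases in DNA, had the largest fall of all members in parental persisters. It ran from 9.75 to 11.4 FPKM (median 10.6) in chemoresistant DTP and from 9.03 to 11.2 FPKM (median 10.4) in chemoresistant libraries. It ran from 9.03 to 12.1 FPKM (median 9.21) in parental DTP and from 15.2 to 17.9 FPKM (median 16.6) in parental libraries. All parental libraries were above every other library, and the other 3 groups overlapped. MSH6 fell by 0.73 ± 0.06 in parental persisters (limma adjusted p = 2.2e-10) and by 0.64 ± 0.06 in chemoresistant against parental cells (limma adjusted p = 7.3e-10), while its change in chemoresistant persisters was 0.04 ± 0.06 (limma adjusted p = 0.614). The difference between the persister changes was 0.77 ± 0.09 (limma adjusted p = 3.26e-08). In chemoresistant DTP against parental DTP cells MSH6 did not pass the test (0.12). It did pass there as higher with relative log expression scaling (0.15, limma adjusted p = 0.00806). The same held without replicate 2 of the chemoresistant DTP cells (0.15, limma adjusted p = 0.0432). The exons of MSH6 share 16.2% of their bases with FBXO11 on the other strand.

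With the deposited scaling, MSH6, XRCC2 and FANCA were the members other than DDB1 that fell by 1.5-fold or more in chemoresistant against parental cells. Their promoters are shown because each holds a match to the E2F motif, which is common among genes of the cell cycle. They come from RefSeq (GRCh38.p14), each 300 bases long with the last 50 after an annotated start: MSH6 on the plus strand at chr2:47782895-47783194, XRCC2 on the minus strand at chr7:152676092-152676391 and FANCA on the minus strand at chr16:89816598-89816897. Capitals mark the match.
MSH6: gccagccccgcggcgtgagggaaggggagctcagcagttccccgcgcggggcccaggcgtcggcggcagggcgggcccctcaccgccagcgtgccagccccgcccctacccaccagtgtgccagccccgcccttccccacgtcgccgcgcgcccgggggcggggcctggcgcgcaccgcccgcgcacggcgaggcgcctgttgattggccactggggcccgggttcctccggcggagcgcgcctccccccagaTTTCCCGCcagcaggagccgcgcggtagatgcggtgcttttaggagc
XRCC2: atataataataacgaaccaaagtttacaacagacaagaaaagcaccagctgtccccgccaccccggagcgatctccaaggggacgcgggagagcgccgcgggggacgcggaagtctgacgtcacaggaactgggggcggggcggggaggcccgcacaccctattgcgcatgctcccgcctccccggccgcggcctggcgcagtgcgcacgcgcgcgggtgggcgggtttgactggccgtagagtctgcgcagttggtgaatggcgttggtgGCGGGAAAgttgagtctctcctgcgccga
FANCA: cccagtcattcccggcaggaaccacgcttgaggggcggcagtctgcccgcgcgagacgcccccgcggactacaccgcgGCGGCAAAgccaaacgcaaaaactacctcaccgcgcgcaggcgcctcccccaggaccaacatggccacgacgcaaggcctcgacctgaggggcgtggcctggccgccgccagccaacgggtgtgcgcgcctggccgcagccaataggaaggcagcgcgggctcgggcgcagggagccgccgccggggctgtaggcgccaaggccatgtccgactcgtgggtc
The forms searched, on both strands, were TTTCCCGC, TTTGGCGC, TTTCGCGC and TTTGCCGC, and 1 of them occurs in 3.32% of 35097 promoters of this length. Of the 45 promoters of 32 members, 7 (15.6%) hold one, in FANCA, FANCC, FANCD2, MSH6, REV3L, XPC and XRCC2. These members did not move together: in chemoresistant against parental cells, MSH6, XRCC2 and FANCA fell, FANCD2 rose, the call of FANCC depended on scaling, and REV3L and XPC did not pass the test (-0.03 and 0.09). A match is a description of letters and not of binding. The CCAAT box was in 28.9% of the members' promoters and 34.6% of all, and the antioxidant response element core TGACNNNGC was in 13.3% and 13.35%.

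Genes of DNA replication and mitosis were set beside the members, since many repair genes are known to be expressed with the cell cycle. Of 30 such genes, 28 were lower and 1 higher in parental DTP against parental (median -0.61), and 28 were lower and 1 higher in chemoresistant against parental (median -0.79). In chemoresistant DTP against chemoresistant, 11 were higher and 7 lower (median 0.05). All tested genes were higher and lower in shares of 45.8% and 19.7%, 48.2% and 29.4%, and 20.5% and 27.4% in these comparisons. The summed level of the 30 genes was 944 to 1017 FPKM in chemoresistant DTP, 992 to 1049 in chemoresistant, 995 to 1063 in parental DTP and 1617 to 1688 FPKM in parental libraries. MSH6, ERCC3, FANCA and FANCG were the members for which every parental library lay above all the others. The share of all tested genes with that pattern was not counted. The part of the replication genes in the members' changes was not tested.

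**Figure D4:**
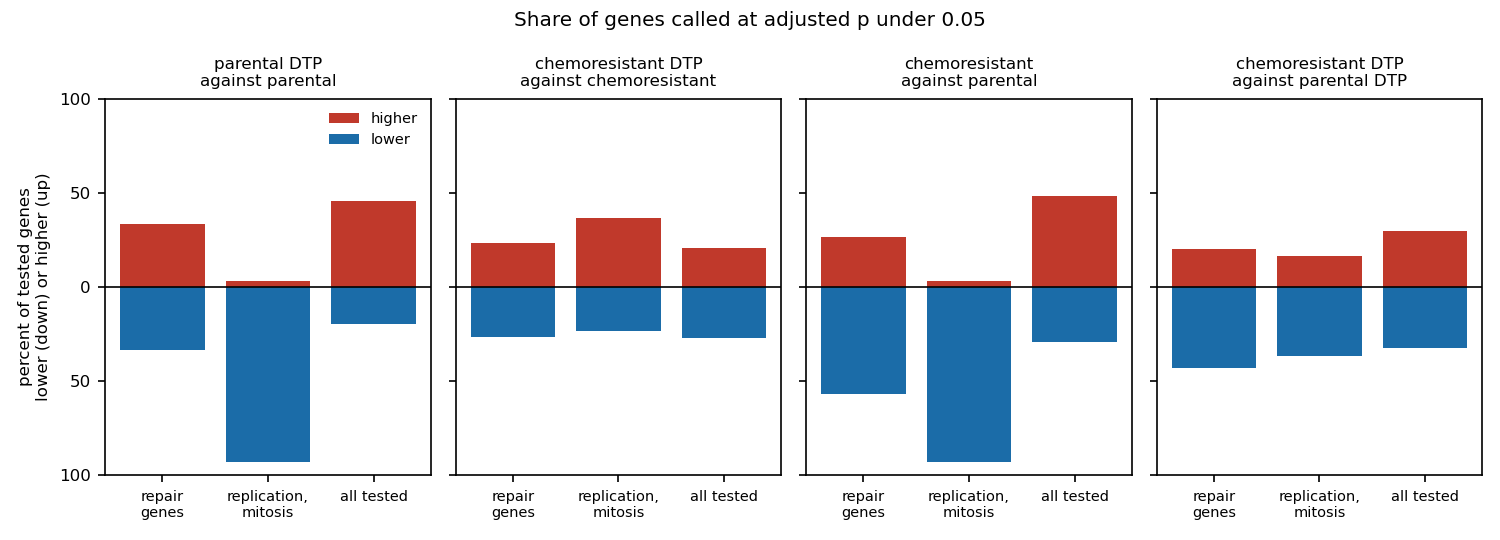
Share (percent of tested genes, higher upwards in red and lower downwards in blue) called at an adjusted p under 0.05 among the 30 tested repair genes, the 30 replication and mitosis genes and all 13729 tested genes. In parental DTP against parental, 33.3% of the repair genes were higher and 33.3% lower, against 3.33% and 93.3% of the replication and mitosis genes.

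Other genes of the same pathways were described from lists that hold no member. Beside them, 48.2% of all tested genes were higher and 29.4% lower in chemoresistant against parental cells. The shares were 20.5% and 27.4% in chemoresistant persisters, and 45.8% and 19.7% in parental persisters. Of 21 tested genes of nucleotide excision, 4 were higher and 12 lower in chemoresistant against parental cells, and 7 were higher and 1 lower in chemoresistant persisters. The higher ones included the TFIIH kinase subunits CCNH (0.66 ± 0.09, limma adjusted p = 1.93e-06) and MNAT1 (0.59 ± 0.10, limma adjusted p = 1.81e-05). The sealing enzyme LIG1 averaged 9.24 ± 1.07 FPKM in chemoresistant DTP, 8.08 ± 0.690 in chemoresistant, 6.81 ± 0.314 in parental DTP and 12.95 ± 0.541 FPKM in parental cells (SD, n = 6 each), and fell in parental persisters by 0.84 ± 0.06 (limma adjusted p = 1.96e-11). Of 12 tested Fanconi genes, 3 were higher and 6 lower in parental persisters. Among them UBE2T, the enzyme that passes ubiquitin to FANCD2, fell by 0.86 ± 0.07 in parental persisters (limma adjusted p = 7.02e-11) and rose by 0.41 ± 0.07 in chemoresistant persisters (limma adjusted p = 1.83e-05).

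Of 18 other recombination genes, 7 were higher and 9 lower in chemoresistant against parental cells, with the nuclease EXO1 at -1.14 ± 0.07 (limma adjusted p = 1.7e-13) and the helicase BLM at -1.09 ± 0.09 (limma adjusted p = 1.87e-10). Of 10 other bypass genes, 4 were higher and 3 lower there, beside the background of 48.2% and 29.4%. UBE2B, a ubiquitin-conjugating enzyme, was at 0.65 ± 0.07 (limma adjusted p = 1.06e-08). The polymerase delta subunit POLD3, shared with polymerase zeta, was at -1.56 ± 0.07 (limma adjusted p = 5.79e-16), and PCNA, the sliding clamp, was at -1.13 ± 0.06 (limma adjusted p = 1.71e-14). Of 6 other mismatch genes, 3 were lower in that comparison and none higher. Of 16 damage checkpoint genes, 6 were higher and 8 lower in chemoresistant against parental cells, with the histone variant H2AX at -2.43 ± 0.06 (limma adjusted p = 1.48e-21) and the clamp subunit RAD1 at 0.96 ± 0.05 (limma adjusted p = 2.33e-15). The background there was the same 48.2% higher and 29.4% lower. With relative log expression scaling, 2 of the other bypass genes were higher and 5 lower in that comparison. The splits were then 4 and 9 for the other recombination genes, 0 and 5 for the other mismatch genes and 3 and 9 for the checkpoint genes. All tested genes gave 39.1% and 38.5% under that scaling.

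Whether the persister change differed between the lines was tested for every member. It differed for 17 of 30: 9 had a higher change in the chemoresistant line and 8 a lower one, on a background of 20.5% and 43.4% of tested genes. At 1.5-fold or more, MSH6 and XRCC2 were higher (7.42% of tested genes) and DDB2 and FANCF lower (21.5%). Under relative log expression scaling RAD51C (0.70) and ERCC3 (0.65) were also that much higher, and FANCF (-0.50) fell short of that size. The shares of all tested genes at that size were not counted under that scaling. With relative log expression scaling the split was 14 and 5, on a background of 31% and 33.3%. The differences of ERCC1 and SLX4 no longer passed under that scaling, and that of FANCG (-0.13) reversed to 0.07. The members with the largest positive differences were MSH6, XRCC2 (0.60 ± 0.18, limma adjusted p = 0.00542), RAD51C and ERCC3. The largest negative ones were DDB2, FANCF (-0.66 ± 0.14, limma adjusted p = 0.000259), XPC (-0.53 ± 0.09, limma adjusted p = 1.49e-05), REV3L (-0.47 ± 0.14, limma adjusted p = 0.00456), ERCC1 and SLX4.

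The members' counts in chemoresistant persisters shifted with a single library, although the 7 members called higher with all libraries kept that call without it. Without replicate 2 of the chemoresistant DTP cells, 14 members in place of 7 were higher in chemoresistant DTP against chemoresistant, where 24.6% of tested genes were higher and 28% lower in the same fit. ERCC3 (0.07), ERCC4 (0.18), FANCA (0.15), FANCI (0.20), BRCA1 (0.30), XRCC2 (0.38) and POLH (0.18) then passed the threshold as higher, and FANCF and BRIP1 no longer passed as lower. With replicates 5 and 6 of the parental DTP cells left out as well, the count was also 14, with 26.5% of tested genes higher and 29.9% lower. Leaving out either way turned the direction of no called member in any comparison.

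By mean level, 13 members were highest in parental DTP cells and 13 in parental cells, against 4 in chemoresistant DTP and 3 in chemoresistant cells. The lowest mean was in chemoresistant DTP cells for 8 members, in chemoresistant cells for 11, in parental DTP cells for 3 and in parental cells for 11. The same counts were not made for all tested genes, so they have no background to be read against. Chemoresistant and parental libraries did not overlap for DDB2, FANCD2 and FANCE, which were higher (39.3% of tested genes), and for ERCC3, ERCC4, DDB1, FANCA, FANCG, RAD51C, XRCC2 and MSH6, which were lower (22.6%). Between the 2 persister groups, libraries did not overlap for 9 of the 30 tested members: FANCE was higher in every chemoresistant DTP library (16.5% of tested genes), and ERCC1, ERCC2, XPC, DDB1, FANCA, FANCG, SLX4 and REV3L were lower in every one (19.8% of tested genes). FANCD2, RAD51C, XRCC3, RAD23B and POLH were also called higher in chemoresistant DTP than in parental DTP cells, but their libraries overlapped.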

How the data were processed

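The deposited table gives FPKM per gene, made by the authors for 24 libraries, per the file headers, and the submitters' processing notes name the build GRCh38. Neither labels nor headers give the aligner, counter, annotation or strandedness. The table had 61274 rows, of which 61251 were genes and 23 were text fragments without values, left out. Whole reads were recovered for 41098 of 41101 genes above 0 (99.99%, tolerance 0.02 reads), and library totals were 14946552 to 37987427 reads. A count of 0 allows 3 reads, or 0.079 to 0.201 CPM, counting error only.

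Libraries were grouped by their labels, 6 a group. Group means were fitted to log2(FPKM + 1) of all 24 libraries with limma 3.58.1 (R 4.3.3, trended prior), for 13729 genes whose highest group mean was 1 FPKM or more. Benjamini-Hochberg adjustment ran over all of them. Alternatives were a pseudocount of 0.1, no filter, a minimum of 5 FPKM, other scalings, voom on recovered reads, the 12 libraries compared, a replicate block, and leaving out libraries. No per-sample column was unused (0).

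Members and lists were chosen with earlier results of these data known. In each comparison and role class, up to 4 called members with the largest changes get full statistics, other members get levels, ranges or counts, and each other list names up to 3 genes. Gene coordinates and exon overlaps come from GENCODE (GRCh38), and promoters from RefSeq, which matched 32 of 33 members.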

Additional observations from a re-analysis of the deposited data

Results flagged for a closer look

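Of 132 sets of 6 libraries (33 members in 4 groups), 20 held a library far from the other 5, by a gap past Dixon's critical value for 6 values. Chance gives about 1 in 20 sets when sets are independent, but these share the same 24 libraries. The same count was not made over all tested genes, so it says nothing particular to the members. Of the 20 libraries flagged, 10 were replicate 2 of the chemoresistant DTP cells. It was the lowest at 6.148 FPKM for ERCC3, 0.8072 for ERCC4, 2.888 for XPC, 23.26 for DDB1, 92.23 for RAD23B, 2.17 for FANCA, 1.378 for SLX4 and 2.343 FPKM for REV3L. The same library was the highest at 6.591 FPKM for ERCC1 and 7.714 FPKM for RAD51C. Replicate 5 of the parental DTP cells was the highest at 0.4095 FPKM for ERCC5, 11.18 for FANCE, 16.22 for FANCI and 12.07 FPKM for MSH6. Replicate 6 of that group was the lowest at 5.526 FPKM for XPA, 12.54 for BRCA1, 5.317 for XRCC2 and 4.948 FPKM for REV3L. Among chemoresistant cells, replicate 3 was the lowest for ERCC4 at 0.8315 FPKM and replicate 2 the highest for DDB1 at 26.26 FPKM.

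For 17 members the persister change differed between the lines by limma's test of the difference (log2 change in the chemoresistant line minus that in the parental line). The difference was positive for MSH6 (0.77), XRCC2 (0.60), RAD51C (0.52), ERCC3 (0.47), FANCA (0.35), POLH (0.33), FANCM (0.31), DDB1 (0.25) and ERCC4 (0.21). It was negative for DDB2 (-1.31), FANCF (-0.66), XPC (-0.53), REV3L (-0.47), SLX4 (-0.40), ERCC1 (-0.40), REV1 (-0.35) and FANCG (-0.13). That of ERCC4 was lost when any one of 6 libraries was left out: replicates 1, 3 and 6 of the chemoresistant DTP, replicate 3 of the chemoresistant, replicate 6 of the parental DTP and replicate 6 of the parental cells.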

How the results depend on the processing

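Counts of members are of 30 tested unless a filter says otherwise. Of 5020 member values under alternatives, 4786 kept direction and side of the threshold, 127 lost the call, 93 gained one and 14 reversed. With relative log expression scaling, 4 members were higher and 17 lower in parental DTP against parental, 11 were higher in chemoresistant DTP against chemoresistant, 5 were higher in chemoresistant against parental, and 14 were higher and 5 lower in the difference of persister changes. Voom on recovered reads gave 4 and 17, 11, 5, and 14 higher in the same order. A minimum of 5 FPKM left some members untested, and the 100 member values that remained all kept direction and side of the threshold. It gave 3 higher in chemoresistant DTP against parental DTP, 4 higher in chemoresistant against parental and 5 lower in chemoresistant DTP against chemoresistant. Shares of all tested genes under voom and under this filter are not given here. Without replicate 2 of the chemoresistant DTP and replicates 5 and 6 of the parental DTP cells, chosen after seeing the data, 14 were higher in chemoresistant DTP against chemoresistant.

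Leaving out 1 library at a time gave 10 to 13 higher and 7 to 10 lower in parental DTP against parental, and 5 to 14 higher and 6 to 8 lower in chemoresistant DTP against chemoresistant. It gave 7 to 8 higher and 13 to 17 lower in chemoresistant against parental, 5 to 7 and 12 to 13 in chemoresistant DTP against parental DTP, and 8 to 10 and 8 to 9 in the difference.

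Values that reversed are given with relative log expression scaling and then voom. In parental DTP against parental they were ERCC1 (-0.0076 and -0.0055), FANCC (-0.10 and -0.14) and RAD23B (-0.11 and -0.12). In chemoresistant against parental they were FANCC (-0.0092 and -0.0132) and RAD23B (-0.0786 and -0.0798). In the difference they were FANCE (0.18 and 0.19) and FANCG (0.069 and 0.07). The cause was not tested beyond the shift of the median gene.

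Same-numbered libraries had deviations correlated from -0.385 to 0.403 (median 0.03, over 36 pairs, 12 above 0.1), and 8 of 72 correlated best with their own number, so the numbers were not taken to pair them. With the number as a replicate block, the counts were the same, such as 10 members higher and 10 lower in parental DTP against parental. Depth limits ERCC5 most, at 43 to 153 reads a library.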
